A study of Homo sapiens with 12 samples.

Results

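In LNCaP cells, 10 genes of insulin and insulin-like growth factor (IGF) signalling were followed through androgen treatment and loss of Bag-1L. They were chosen by symbol and comprise the receptors IGF1R, INSR and IGF2R, the adaptors IRS1, IRS2 and GRB10, and the binding proteins IGFBP2, IGFBP3, IGFBP4 and IGFBP5, that is 10 of the 63677 gene identifiers in each count table. Each symbol matched 1 identifier. The list was drawn up with the counts of all 6 groups already known, so the members' values are a description, their position relative to the threshold included. Tests with adjusted p-values are given only for other genes of the pathway.

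LNCaP is an established, androgen-responsive prostate cancer line. Control cells carried the TALEN vector control, and Bag-1L KO cells had lost the start codon of the longest BAG1 protein form through a TALEN, an engineered nuclease, with the start codons of the shorter forms left intact. Both lines were sampled in full medium (FM, with fetal bovine serum), or after 72 h in medium with charcoal-stripped serum followed by 16 h with ethanol (EtOH, vehicle) or 10 nM dihydrotestosterone (DHT, an androgen). There were 2 samples in each of the 6 groups (control FM, KO FM, control EtOH, KO EtOH, control DHT and KO DHT). The KO line came from single-clone isolation, so an effect of Bag-1L loss and a difference between clones cannot be told apart. FM and EtOH differ in the whole serum and in the vehicle, not in androgen alone.

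Insulin and the IGFs bind the tyrosine kinase receptors INSR and IGF1R, which phosphorylate the adaptors IRS1 and IRS2. These recruit phosphatidylinositol 3-kinase (PI3K), and its product activates the kinase AKT, which holds FOXO transcription factors out of the nucleus and feeds mTOR. GRB10 binds the activated receptors and dampens them, IGF2R takes IGF2 to the lysosome, and the IGFBPs hold IGFs in the extracellular fluid. The pathway supports growth and survival of prostate cancer cells.

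The bases upstream of the annotated starts are shown first for the 4 members that passed the threshold with DHT in both lines. Each sequence holds the 250 bases before a RefSeq start (GRCh38.p14), read 5′ to 3′ on the gene's strand, and capitals mark the GC box GGGCGG or its complement CCGCCC, a motif bound by Sp1-type factors. The windows are chr15:98648289-98648538 (plus strand) for IGF1R, chr13:109786584-109786833 (minus strand) for IRS2, chr7:45921273-45921522 (minus strand) for IGFBP3 and chr7:50793454-50793703 (minus strand) for GRB10, whose outermost start was taken of 5 listed.
IGF1R: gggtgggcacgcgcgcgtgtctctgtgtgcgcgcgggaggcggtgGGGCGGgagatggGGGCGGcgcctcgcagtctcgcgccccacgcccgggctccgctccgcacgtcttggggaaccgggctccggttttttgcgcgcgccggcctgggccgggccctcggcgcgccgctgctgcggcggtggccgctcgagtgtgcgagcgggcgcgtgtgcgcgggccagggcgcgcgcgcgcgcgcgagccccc
IRS2: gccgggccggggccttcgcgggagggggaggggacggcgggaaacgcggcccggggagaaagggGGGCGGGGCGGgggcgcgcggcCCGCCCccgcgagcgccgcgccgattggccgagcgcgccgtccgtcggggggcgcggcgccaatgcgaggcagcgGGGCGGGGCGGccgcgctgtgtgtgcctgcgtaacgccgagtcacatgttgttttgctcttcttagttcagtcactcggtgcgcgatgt
IGFBP3: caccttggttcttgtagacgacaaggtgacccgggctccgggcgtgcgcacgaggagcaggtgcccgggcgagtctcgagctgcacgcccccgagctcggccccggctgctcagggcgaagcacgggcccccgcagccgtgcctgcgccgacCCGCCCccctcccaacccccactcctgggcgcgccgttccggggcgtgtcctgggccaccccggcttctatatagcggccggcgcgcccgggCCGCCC
GRB10: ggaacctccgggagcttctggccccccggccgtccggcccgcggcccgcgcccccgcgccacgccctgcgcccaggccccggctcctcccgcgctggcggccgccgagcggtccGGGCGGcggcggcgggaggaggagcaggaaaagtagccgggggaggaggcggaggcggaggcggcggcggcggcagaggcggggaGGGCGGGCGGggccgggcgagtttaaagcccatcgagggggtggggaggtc
These windows were rich in G and C, with 81.2%, 76.4%, 76% and 81.6% in the order printed, beside a median of 58% over 35116 such windows of the genome. This was not particular to them. Of the other members, IRS1 had 80.8%, IGF2R 79.2%, INSR 78.4%, IGFBP4 71.6% and IGFBP5 61.2%. The IGFBP2 starts ran from 56.4% to 69.2%, and the 5 GRB10 starts from 30.4% to 81.6%. RefSeq listed 16 starts for the 10 members. The GC box, on either strand, was found in 11 of the 16 windows and in 42.6% of all windows. The forkhead motif GTAAACA or TGTTTAC was found in 0 of the 16 and in 2.98% of all windows. A match is a run of letters and not a shown binding site.

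Gene counts totalled between 20826843 and 30354666 per sample, and the detection floor, set at 3 counts, amounted to 0.0988 to 0.144 CPM (counts scaled to a common library total). BAG1 mRNA ran from 1701.5 to 2702.6 normalized counts (counts divided by a size factor per sample) in the 6 control samples and from 1075.5 to 1576.1 in the 6 KO samples. These ranges did not overlap, although the count covers all BAG1 forms and does not read the edited codon. The prostate luminal markers KLK3, KLK2, FOLH1, HOXB13, KRT8 and KRT18 each had at least 3303.2 normalized counts in every sample. Of 10 matched markers of basal, fibroblast, leukocyte and endothelial cells, COL1A1 alone exceeded 38.4 in any sample, with 370.3 to 1012.6. The control EtOH pair was the least alike, differing by 0.238 on the log2 scale at the median of 11374 genes, beside 0.172 in control DHT and 0.076 to 0.127 in the other groups. Whether that spread plays a part in the results below was not tested, and for the members values without either replicate are given where they change a call.

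Of the 10 members, 8 passed the filter on low counts (at least 10 counts summed over all samples). IRS1 (ENSG00000169047, chromosome 2, 227596028 to 227664536, GRCh37, minus strand), the adaptor first described for the insulin receptor, was listed with between 0 and 4 raw counts per sample. IGFBP4 (ENSG00000141753, chromosome 17, 38599702 to 38613977, plus strand) was listed with 0 or 1. Both were at or near the floor in every group, and no fold change is given for them. At this depth IRS2 was thus the detected IRS adaptor among the members.

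Levels were compared between genes as mean normalized counts per kilobase of annotated exon over the 12 samples. GRB10 was highest at 1140, followed by IGFBP2 at 839, IGF2R at 281, IGF1R at 155, IGFBP3 at 130, INSR at 43.9, IRS2 at 36.3 and IGFBP5 at 23.3. GRB10 thus exceeded 96% of the genes that passed the filter, and IGFBP5 exceeded 52.2%. Across the group means, IGF1R spanned 7.61-fold, GRB10 5.56-fold, IRS2 4.74-fold, IGFBP3 3.53-fold, IGFBP5 3.13-fold and IGFBP2 2-fold, whereas IGF2R spanned 1.56-fold and INSR 1.34-fold.

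**Figure D1:**
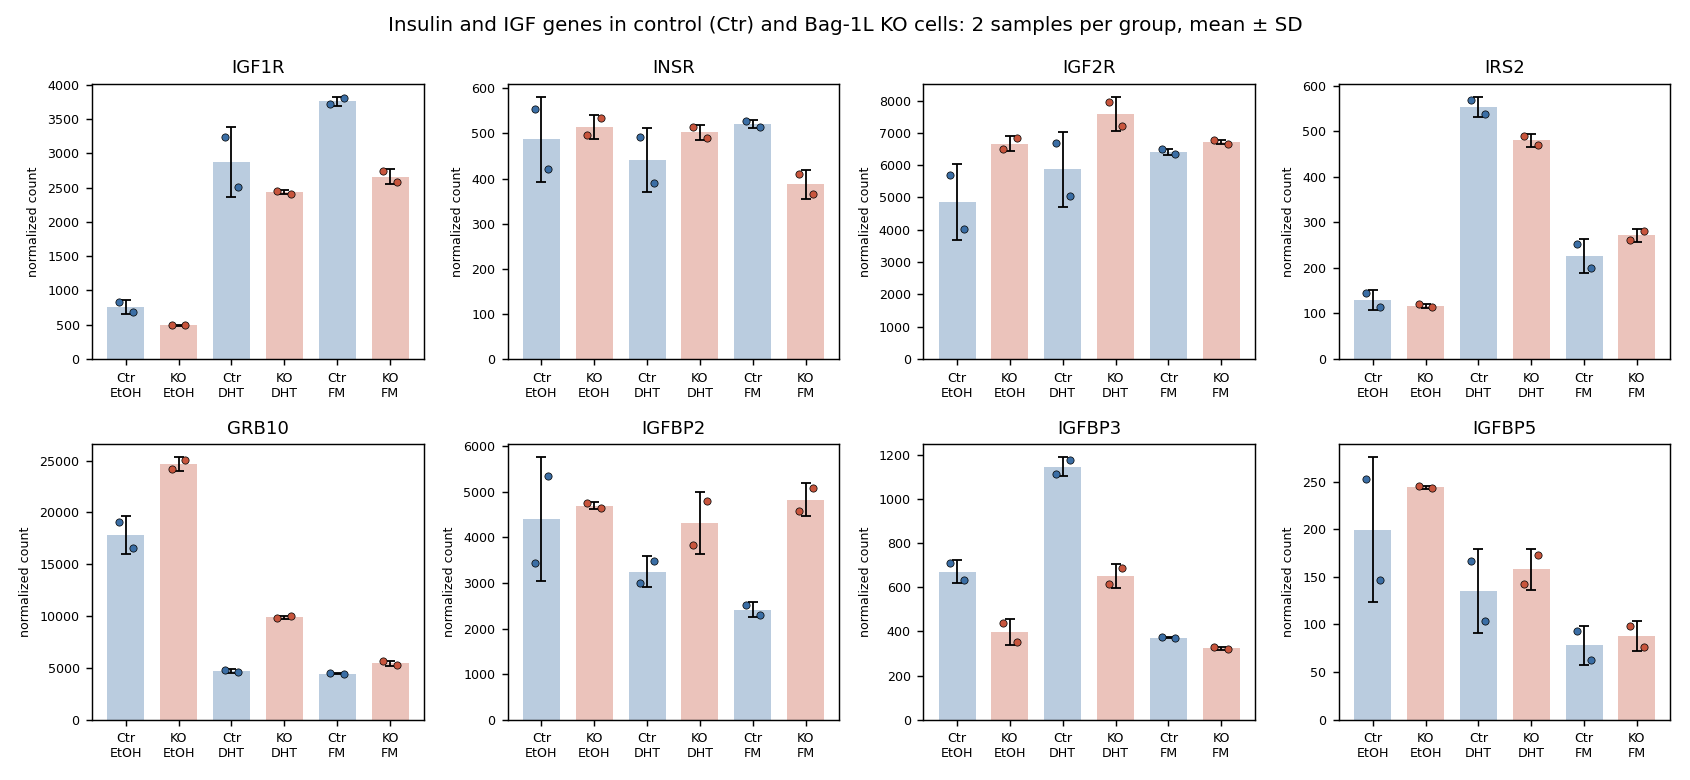
Normalized counts (vertical axes, from 0) of the 8 detected members in control (Ctr, blue) and Bag-1L KO (red) cells in EtOH, DHT and FM. Bars give the mean of 2 samples, error bars the SD and points the samples. IGF1R and IRS2 are lowest in the EtOH groups, GRB10 is highest there, and INSR lies between 365 and 553.8 throughout.

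With DHT, IGF1R and IRS2 rose about 4-fold or more in both lines, GRB10 fell, and IGFBP3 rose to a smaller extent. A gene passed the threshold when the DESeq2 p adjusted over all genes was no more than 0.05 and the fold was 1.5 or over. In control, 3 of the 8 fitted members passed as higher and 1 as lower with DHT, where 6.04% of 17535 genes tested passed as higher and 5.37% as lower (11.4% in either direction, 19.9% with no fold minimum). In KO the same split of 3 and 1 was seen, where 4.43% passed as higher and 3.24% as lower (7.68% in either direction, 13.6% with no fold minimum). The genes were IGF1R, IRS2, IGFBP3 and GRB10 in each line. Since the members were chosen with these values known, nothing is read from their share. The median log2 fold change of the 8 was 0.06 in control and 0.07 in KO, beside -0.02 and -0.01 over all genes tested.

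IGF1R (ENSG00000140443, chromosome 15, 99191768 to 99507759, GRCh37, plus strand), the receptor for IGF1 and IGF2, had 829.8 and 687.3 normalized counts in control EtOH and 3238.7 and 2510.7 in control DHT. In KO it had 490.6 and 497.8 in EtOH and 2456.7 and 2411.4 in DHT. Each DHT sample stood above every EtOH sample. The log2 fold change with DHT was 1.92 (standard error, SE, 0.14) in control and 2.30 (SE 0.14) in KO, that is 3.79-fold and 4.92-fold. The difference between these responses was 0.38 (SE 0.2, 95% interval -0.01 to 0.77) and did not pass.

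IRS2 (ENSG00000185950, chromosome 13, 110405042 to 110438930, minus strand), which links the receptors to PI3K, had 144.6 and 114.4 normalized counts in control EtOH and 569.4 and 538.7 in control DHT. In KO it had 119.8 and 113.9 in EtOH and 490.5 and 469.1 in DHT. The EtOH samples of the lines overlapped, and the DHT samples of KO lay just under those of control. The log2 changes were 2.10 (SE 0.18) in control and 2.04 (SE 0.18) in KO, 4.27-fold and 4.11-fold. Their difference was -0.06 (SE 0.26, 95% interval -0.56 to 0.45).

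GRB10 (ENSG00000106070, chromosome 7, 50657760 to 50861159, minus strand), the receptor-binding adaptor, moved the opposite way. Its normalized counts were 19095 and 16532.2 in control EtOH and 4823.7 and 4560.4 in control DHT. In KO they were 24154.1 and 25098.8 in EtOH and 9784.8 and 9973.2 in DHT. No sample of any of these groups overlapped another group, and DHT left KO cells at a level above that of control cells. On the log2 scale GRB10 fell by 1.92 (SE 0.1) in control and by 1.32 (SE 0.1) in KO, 3.8-fold and 2.49-fold lower.

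GRB10 was the 1 fitted member past the threshold for the difference in DHT response, with a log2 difference of 0.61 (SE 0.14, 95% interval 0.33 to 0.89) between KO and control, where 0.408% of 13478 genes tested passed (0.223% as higher, 0.185% as lower, 0.438% with no fold minimum). The call was not stable. It was lost in 12 of 21 alternative fits, among them edgeR, with 0.64, and the fit of the starved groups alone, with 0.61. Leaving out control EtOH replicate 1 gave 0.5, KO EtOH replicate 1 gave 0.58 and replicate 2 gave 0.64, control DHT replicate 2 gave 0.57, and KO DHT replicates 1 and 2 gave 0.62 and 0.59, all without a call. It was lost as well, at 0.61, without any 1 of the 4 FM samples, which take no part in this contrast. The direction was the same in all 21.

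Of the binding proteins, IGFBP3 (ENSG00000146674, chromosome 7, 45951844 to 45961473, minus strand), the main IGF carrier of serum, rose with DHT. It had 709 and 632.6 normalized counts in control EtOH and 1113.6 and 1174.1 in control DHT. KO cells had 437.4 and 353.8 in EtOH and 612.4 and 687.3 in DHT. KO cells with DHT reached the level of control cells without it. The log2 changes were 0.77 (SE 0.14) in control and 0.72 (SE 0.14) in KO, and the difference between them was -0.05 (SE 0.2, 95% interval -0.44 to 0.34). Without KO EtOH replicate 2 the KO change was 0.57 and did not pass.

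The other 2 detected binding proteins, which are neighbours on chromosome 2, did not pass with DHT. IGFBP2 (ENSG00000115457, 217497551 to 217529159, plus strand) changed by -0.44 (SE 0.18) in control and -0.12 (SE 0.18) in KO. IGFBP5 (ENSG00000115461, 217536828 to 217560272, minus strand) changed by -0.56 (SE 0.29) and -0.63 (SE 0.29). The control values became smaller or larger with the replicate left out. Under each replicate number both genes were lower in control DHT than in control EtOH, although no pairing is stated. Control DHT had 3006.5 and 3487.1 normalized counts of IGFBP2 and 166.6 and 103.9 of IGFBP5, in replicate order. IGFBP2 had 3435.3 and 5350.6 normalized counts in the control EtOH replicates, and its change was -0.72 without replicate 1, which passed, and -0.08 without replicate 2, which did not. IGFBP5 had 253.1 and 146.2 there, and it changed by -0.11 without replicate 1 and by -0.91 without replicate 2, which passed. Without control DHT replicate 1 it was -0.94 and passed, and without replicate 2 it was -0.26 and did not. In KO, IGFBP5 passed in 3 of the 21 alternatives, one of them without control EtOH replicate 2 (-0.63). A DIRC3-AS1 transcript on the opposite strand covers 7.53% of the IGFBP5 exon bases.

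INSR (ENSG00000171105, chromosome 19, 7112266 to 7294425, minus strand), the insulin receptor, had 553.8 and 420.8 normalized counts in control EtOH and 491.7 and 390.4 in control DHT. For KO the counts were 496.2 and 533.6 in EtOH and 513.9 and 491 in DHT. These groups overlapped. It changed by -0.14 (SE 0.17, 95% interval -0.47 to 0.18) with DHT in control and by -0.04 (SE 0.17, 95% interval -0.36 to 0.29) in KO. IGF2R (ENSG00000197081, chromosome 6, 160390114 to 160534539, plus strand) changed by 0.27 (SE 0.16, 95% interval -0.04 to 0.59) and 0.19 (SE 0.16, 95% interval -0.13 to 0.5). The intervals of both receptors lay well below the rise of IGF1R.

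FM was compared with EtOH next, and each comparison used the EtOH samples that also served for DHT. In control 2 fitted members passed as higher and 4 as lower, where 9.81% of 18549 genes tested passed as higher and 11.5% as lower (21.3% in either direction, 34.9% with no fold minimum). In KO 2 passed as higher and 2 as lower, where 9.61% and 9.68% of 18549 genes did (19.3% in either direction, 31.7% with no fold minimum). The median log2 change of the 8 members was -0.38 in control and -0.14 in KO, beside -0.01 over all genes tested in each line.

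IGF1R was highest in FM, with 3716.1 and 3808.1 normalized counts in control and 2741.2 and 2581.1 in KO. It rose from EtOH by 2.31 (SE 0.14) and 2.43 (SE 0.14) on the log2 scale. GRB10 was at 4465.9 and 4395.6 in control FM and 5631.7 and 5263.1 in KO FM, and it fell by 2.01 (SE 0.1) and by 2.18 (SE 0.1). The difference between the GRB10 responses to FM was -0.17 (SE 0.14, 95% interval -0.45 to 0.11).

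IRS2 had 251.8 and 200.4 normalized counts in control FM and 261.2 and 281.7 in KO FM, above EtOH but below DHT in every sample. Its log2 change from EtOH was 0.80 (SE 0.19) in control and 1.22 (SE 0.19) in KO, against the larger changes with DHT given above. IGFBP3 stood on the other side of EtOH, with 373.3 and 369.6 in control FM and 328.3 and 318.9 in KO FM. It was lower than in EtOH by a log2 change of -0.85 (SE 0.15) in control, which passed, and -0.29 (SE 0.15) in KO, which did not. IGFBP3 thus passed as higher with DHT and as lower with FM in control cells.

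IGFBP5 fell in FM in both lines, to 92.8 and 63.2 normalized counts in control and 98.9 and 76.7 in KO. The log2 changes were -1.36 (SE 0.3) and -1.47 (SE 0.3). IGFBP2 fell in control alone past the threshold, to 2523.4 and 2292.6, a log2 change of -0.87 (SE 0.18), while KO FM had 4564.7 and 5085.5 and a change of 0.04 (SE 0.18). Without control EtOH replicate 2, the higher of that pair, the control change was -0.51 and did not pass. INSR changed by 0.09 (SE 0.17) in control and -0.41 (SE 0.17) in KO, and IGF2R by 0.40 (SE 0.16) and 0.01 (SE 0.16), none of which passed. When the fold minimum was dropped, INSR in KO and IGF2R in control passed. Without control EtOH replicate 1 the control value of IGF2R was 0.68 and passed.

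For the difference in FM response between the lines, 1 fitted member passed, where 1.39% of 12971 genes tested did (0.748% as higher, 0.64% as lower, 1.53% with no fold minimum). This was IGFBP2, with 0.91 (SE 0.25, 95% interval 0.42 to 1.4). The call was lost in 8 of 21 alternatives. With edgeR the value was 0.93, and without control EtOH replicate 2 it was 0.55. Leaving out control FM replicate 1 or 2 gave 0.97 or 0.84, KO FM replicate 1 or 2 gave 0.98 or 0.83, and KO EtOH replicate 1 or 2 gave 0.93 or 0.89, none of them with a call. Leaving out control EtOH replicate 1 called INSR (-0.72) and IGF2R (-0.66) as well, beside main values of -0.51 (SE 0.24) and -0.39 (SE 0.23) that did not pass.

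**Figure D2:**
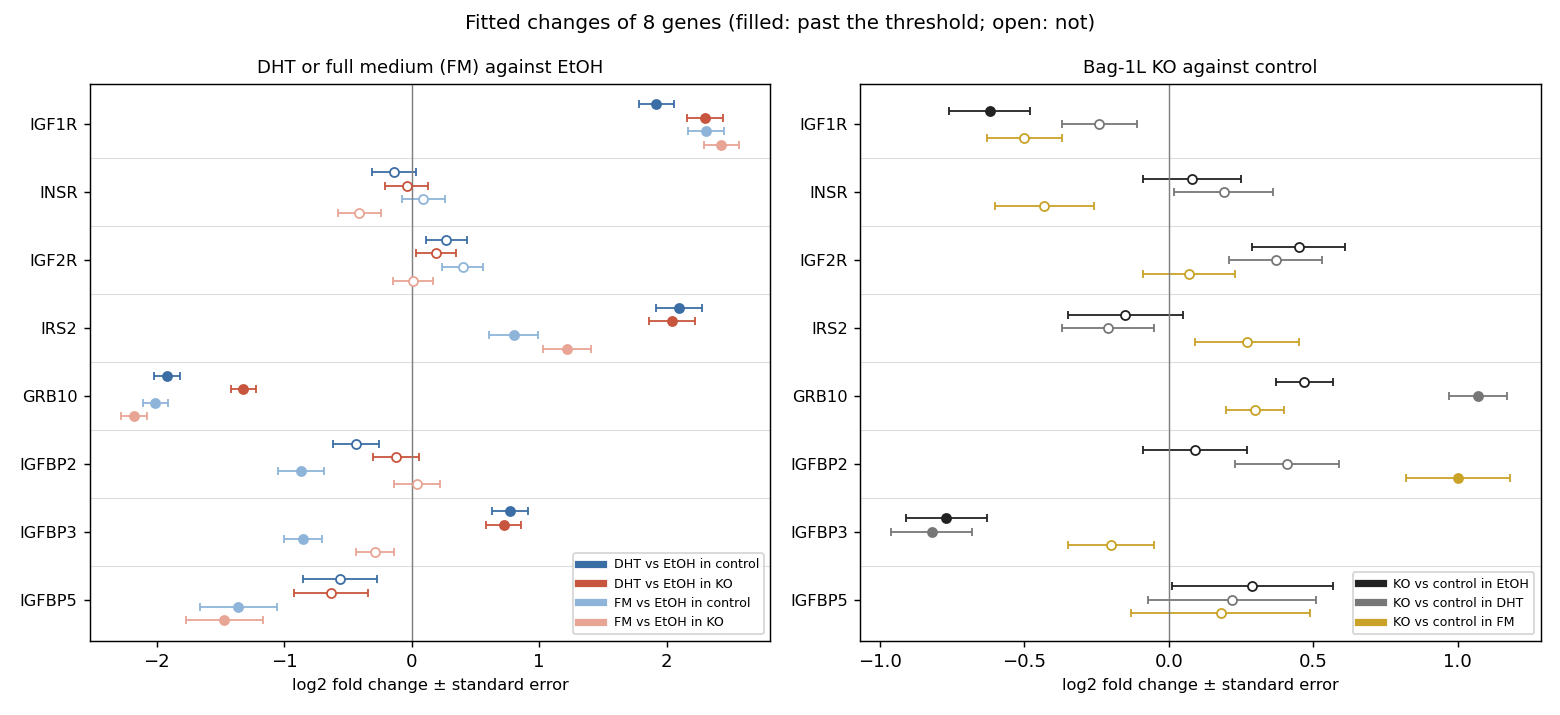
Log2 fold changes (horizontal axes) with standard errors of the 8 detected members, for DHT and FM against EtOH on the left and for KO against control on the right. Filled points passed the threshold and open points did not. IGF1R and GRB10 lie on opposite sides of 0 in all 4 comparisons on the left, and IGFBP3 changes side between DHT and FM.

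The lines were then compared within each condition. In EtOH 2 fitted members passed, both lower in KO, where 5.11% of 16521 genes tested passed (2.8% as higher, 2.31% as lower, 9.81% in either direction with no fold minimum). In DHT 1 passed as higher and 1 as lower, where 7.98% of 16014 genes did (4.66% as higher, 3.32% as lower, 16.4% with no fold minimum). In FM 1 passed as higher, where 8.01% of 15000 genes did (5.41% as higher, 2.6% as lower, 18.5% in either direction with no fold minimum). The median log2 difference of the 8 members was 0.08, 0.21 and 0.12 in the same order, beside -0.01, -0.02 and -0.01 over all genes tested.

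IGFBP3 was lower in KO, with log2 changes of -0.77 (SE 0.14) in EtOH and -0.82 (SE 0.14) in DHT, 1.7-fold and 1.76-fold lower. In FM the difference was -0.20 (SE 0.15) and did not pass. The 6 groups ranked control DHT, control EtOH, KO DHT, KO EtOH, control FM and KO FM for this gene, and the samples of control EtOH overlapped those of KO DHT, as did those of KO EtOH and control FM.

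IGF1R was lower in KO in EtOH, with a log2 change of -0.62 (SE 0.14), and the 2 KO samples lay below both control samples in every condition. The change was -0.24 (SE 0.13) in DHT and -0.50 (SE 0.13) in FM, and neither passed. The FM change missed the fold minimum alone and passed when that minimum was dropped, whereas the DHT change did not. The EtOH call was lost at -0.48 without control EtOH replicate 1, and at -0.62 when only the EtOH groups were fitted. Its groups ranked control FM, control DHT, KO FM, KO DHT, control EtOH and KO EtOH, and among neighbours only control DHT and KO FM overlapped.

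GRB10 was higher in KO in DHT, with a log2 change of 1.07 (SE 0.1) or 2.11-fold, and this passed in every alternative. The changes of 0.47 (SE 0.1) in EtOH and 0.30 (SE 0.1) in FM were below the 1.5-fold minimum, and both passed when that minimum was dropped. Its groups ranked KO EtOH, control EtOH, KO DHT, KO FM, control DHT and control FM with no overlap between neighbours.

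IGFBP2 was 2-fold higher in KO in FM, with a log2 change of 1 (SE 0.18), which passed in every alternative. It was 0.09 (SE 0.18) in EtOH and 0.41 (SE 0.18) in DHT. For IRS2, INSR, IGF2R and IGFBP5 the log2 differences between the lines ran from -0.43 to 0.45 over the 3 conditions, and none passed. The largest of these was IGF2R in EtOH, where the control replicates were at 5698.2 and 4021.6 and the KO replicates at 6494.9 and 6827.6. Its difference in EtOH passed at 0.45 when the fold minimum was dropped, and at 0.73 without control EtOH replicate 1. IGF2R shares 2.53% of its exon bases with the pseudogene CHP1P2 on the same strand.

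Ratios taken within a sample do not depend on its size factor, although their absolute size depends on the exon lengths used. Per kilobase, IGF1R stood to INSR at 1.22 ± 0.0741 (SD, n = 2) in control EtOH and 0.746 ± 0.0307 in KO EtOH. With DHT the ratio was 5.06 ± 0.0855 for control and 3.76 ± 0.0718 for KO, and in FM it was 5.61 ± 0.19 for control and 5.35 ± 0.207 for KO (SD, n = 2). In the EtOH groups the mRNAs of the 2 receptors were thus at similar levels, and with DHT or FM the IGF1R mRNA was several times that of INSR.

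GRB10 stood to IGF1R at 33.5 ± 1.05 in control EtOH and at 70.9 ± 1.19 in KO EtOH (SD, n = 2). The ratio was 2.35 ± 0.329 in control DHT and 5.78 ± 0.154 in KO DHT, and it was lowest in FM, with 1.68 ± 0.0478 in control and 2.91 ± 0.0155 in KO (SD, n = 2). The KO samples exceeded the control samples in each condition. IGFBP2 made up between 70.1% and 92.9% of the summed per-kilobase counts of the 4 binding proteins in each sample, with its lowest share in control DHT. The RNA came from whole cultures, in which fewer cells with a transcript and less of it per cell cannot be told apart.

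**Figure D3:**
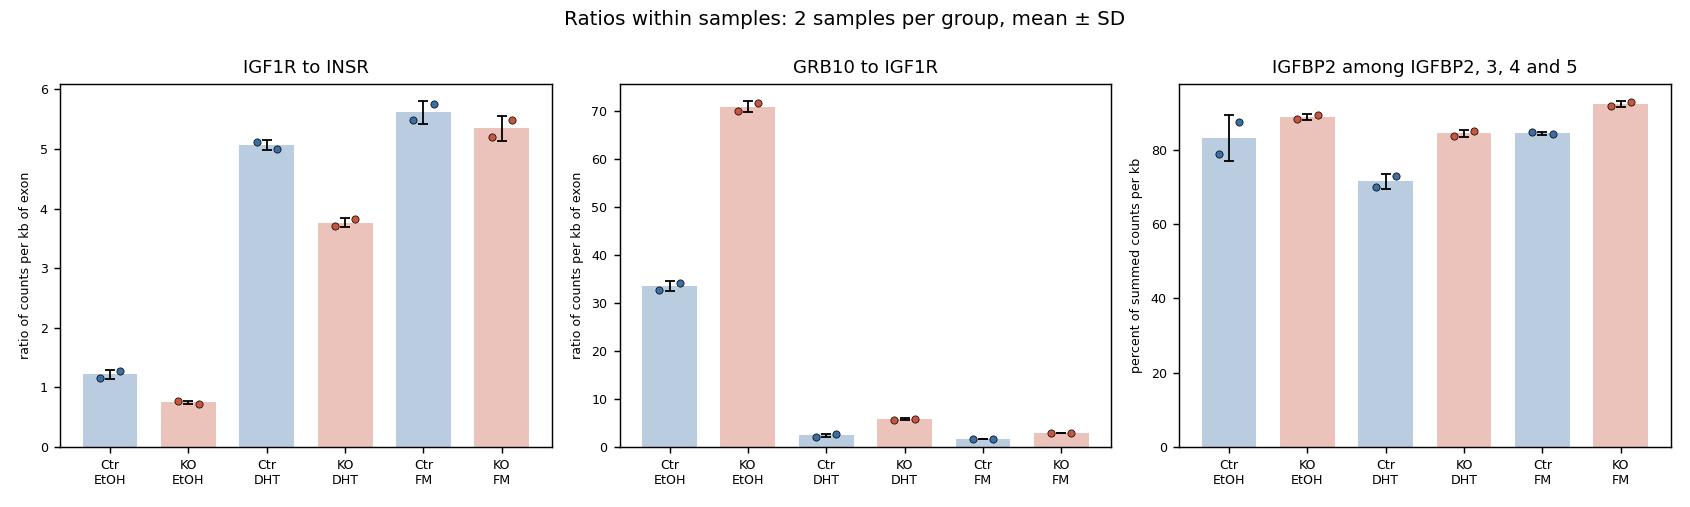
Ratios within samples, as points with the mean and SD of 2 samples per group: IGF1R to INSR, GRB10 to IGF1R (both per kilobase of exon) and the percent of IGFBP2 in the summed counts per kilobase of IGFBP2, IGFBP3, IGFBP4 and IGFBP5. The first ratio is below 1.3 in EtOH and above 3.7 elsewhere, and the second is highest in EtOH, at 32.8 to 71.8.

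The genes whose pattern was most like that of each detected member were sought among 11373 others that averaged 100 normalized counts or more, by Pearson's r of log2 normalized counts over the 12 samples. IGF1R was closest to L3MBTL3 (0.993) and ELOVL2 (0.992), GRB10 to PLPPR1 (0.992) and CBLN2 (0.99), and IRS2 to PCDH1 (0.986) and PER1 (0.982). IGFBP3 was closest to VEGFA (0.985) and RHOB (0.962), and IGFBP2 to HMX1 (0.988) and SLC2A4RG (0.979). For IGFBP5 these were ENTPD2 (0.959) and LEF1 (0.957), for INSR SETDB1 (0.976) and GIGYF2 (0.959), and for IGF2R GTF3C1 (0.968) and MLLT1 (0.953). These values describe 12 samples that share 6 groups and their libraries, and the best of 11373 genes is close by selection.

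The rest of the pathway was read from 71 further genes, listed by textbook role, although earlier results of these data were known when the list was made. The filter kept 68 of them, and 61 were tested for DHT in each line. With DHT, 6 passed as higher and 10 as lower in control (16 of 61, where 11.4% of all genes tested passed), and 4 as higher and 10 as lower in KO (14 of 61, where 7.68% did). The median of their log2 changes stood at 0.04 for control and -0.01 for KO, beside -0.02 and -0.01 over all genes tested. The counts include IGFALS, with 0 to 43 raw counts per sample, and STC1, with 0 to 17, for which no fold is given. In the RAS and MAPK role 0 of 11 passed by DESeq2 in either line. Of these, 3 in control and 1 in KO had an unadjusted p under 0.05, and 2 and 1 had an adjusted p of 0.05 or less and missed the fold minimum alone. With edgeR 0 passed as well.

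Among the ligands, INS had 0 counts in every sample. IGF1, the main growth factor for IGF1R, rose with DHT from 29.8 ± 5.7 to 65.6 ± 12.9 normalized counts in control, while KO went from 97.1 ± 0.2 to 177.1 ± 4 (SD, n = 2). The log2 changes were 1.14 (SE 0.29, adjusted p = 0.000896) and 0.87 (SE 0.23, adjusted p = 0.00172). The control call was lost without control DHT replicate 1 (0.93) and when only the groups compared were fitted (1.16), and the KO call without either replicate of KO EtOH (0.87). IGF1 was higher in KO in every condition, by 1.71 (SE 0.28, adjusted p = 1.31e-07) in EtOH, 1.43 (SE 0.24, adjusted p = 7.53e-08) in DHT and 1.52 (SE 0.22, adjusted p = 5.56e-10) in FM on the log2 scale, and these calls held in all 21 alternatives. IGF2, the other ligand, was scarce at 33.3 to 74.1 normalized counts in the group means and did not pass with DHT (adjusted p = 0.25 in control and 0.946 in KO).

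INPP4B, a lipid phosphatase that acts against PI3K signalling, had the largest rise with DHT among the pathway genes that passed. It went from 42.1 ± 11.7 to 293.7 ± 2.7 normalized counts in control, while KO went from 89.1 ± 4.5 to 613.4 ± 47.6 (SD, n = 2). The log2 changes were 2.80 (SE 0.21, adjusted p = 7.21e-39) and 2.78 (SE 0.17, adjusted p = 1.14e-56). INPP4B was higher in KO by 1.08 (SE 0.23, adjusted p = 8.72e-05) in EtOH, 1.06 (SE 0.14, adjusted p = 2.12e-11) in DHT and 0.94 (SE 0.14, adjusted p = 5.29e-10) in FM. The EtOH call was lost, at 1.08, when only the EtOH groups were fitted. PIK3R1, a regulatory subunit of PI3K, fell by 0.64 in control (SE 0.11, adjusted p = 3.21e-07) and by 0.92 in KO (SE 0.11, adjusted p = 2.68e-14) with DHT. Without control EtOH replicate 1 the control value was -0.57 and below the fold minimum.

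Of the mTOR group, 1 of 10 genes passed as higher with DHT and 1 as lower in each line, where 6.04% and 5.37% of all genes tested did in control and 4.43% and 3.24% in KO. MTOR, the kinase, rose by 0.91 (SE 0.17, adjusted p = 1.86e-06) in control and 0.97 (SE 0.17, adjusted p = 4.34e-07) in KO. DEPTOR, an inhibitor of the kinase, fell by 1.42 (SE 0.18, adjusted p = 1.36e-13) and by 0.73 (SE 0.18, adjusted p = 0.000574). Without KO DHT replicate 1 the KO value of DEPTOR was -0.63 and did not pass.

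The transcripts listed as FOXO-dependent held the largest number of genes past the threshold as lower among the roles listed. This list does not hold every transcript that may depend on FOXO. Each gene had 1 role, so members were not counted in it. Of these, IRS2 rose with DHT (2.10 in control and 2.04 in KO), and INSR did not pass (-0.14 and -0.04). Of the 8 transcripts on the list, 6 were tested. With DHT 4 passed as lower in control and 5 in KO, where 5.37% and 3.24% of all genes tested did, and none passed as higher. Of the 4 in control, KLHL24 (-0.64) was lost in 3 of 21 alternatives, with -0.43 without control EtOH replicate 1 and -0.58 without control DHT replicate 2. CCNG2, which encodes an atypical cyclin, went from 4499.5 ± 255.2 to 1348.2 ± 143.3 normalized counts in control, while KO went from 4316.6 ± 89.4 to 1606.1 ± 95.1 (SD, n = 2), a log2 change of -1.74 (SE 0.11, adjusted p = 5.54e-51) and -1.43 (SE 0.11, adjusted p = 1.13e-34). SESN3, a stress-induced restraint on mTOR, fell by 1.76 (SE 0.16, adjusted p = 2.49e-25) in control and by 0.91 (SE 0.16, adjusted p = 6.61e-07) in KO. The difference between the SESN3 responses was 0.85 (SE 0.23, adjusted p = 0.0488). SESN3 was the 1 pathway gene of 56 tested past the threshold for that difference, where 0.408% of 13478 genes passed. The call was lost in 14 of 21 alternatives. Without control EtOH replicate 1 the difference was 0.56. PIK3IP1, an inhibitor of PI3K, fell by 1.52 (SE 0.28, adjusted p = 1.38e-06) and by 1.05 (SE 0.26, adjusted p = 0.00086), the latter not called without KO EtOH replicate 1 (-0.99). TXNIP, also listed, had 0 counts under its matched identifier in all samples, which says nothing of other identifiers, and 8012 of those in the files were not in the annotation used.

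FM gave a similar division of the pathway against the same EtOH samples. In control 6 passed as higher and 10 as lower of 61 tested (21.3% of all genes tested passed), and in KO 7 and 13 (19.3%). INPP4B rose by 3.89 (SE 0.2, adjusted p = 2.01e-78) in control and 3.75 (SE 0.17, adjusted p = 1.31e-105) in KO. Of the 6 tested transcripts on the FOXO-dependent list, 5 passed as lower in each line, where 11.5% of all genes tested did in control and 9.68% in KO. CCNG2 was at -2.72 (SE 0.12, adjusted p = 9.35e-118) and -2.51 (SE 0.12, adjusted p = 1.09e-101). IGF1 rose by 1.80 (SE 0.28, adjusted p = 2.47e-09) and 1.62 (SE 0.22, adjusted p = 6.33e-12). IGF2 fell by 0.92 (SE 0.37, adjusted p = 0.0402) in control, a call lost in 12 of 21 alternatives. Its change was -0.57 without control FM replicate 2 and -0.58 without control EtOH replicate 1.

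**Figure D4:**
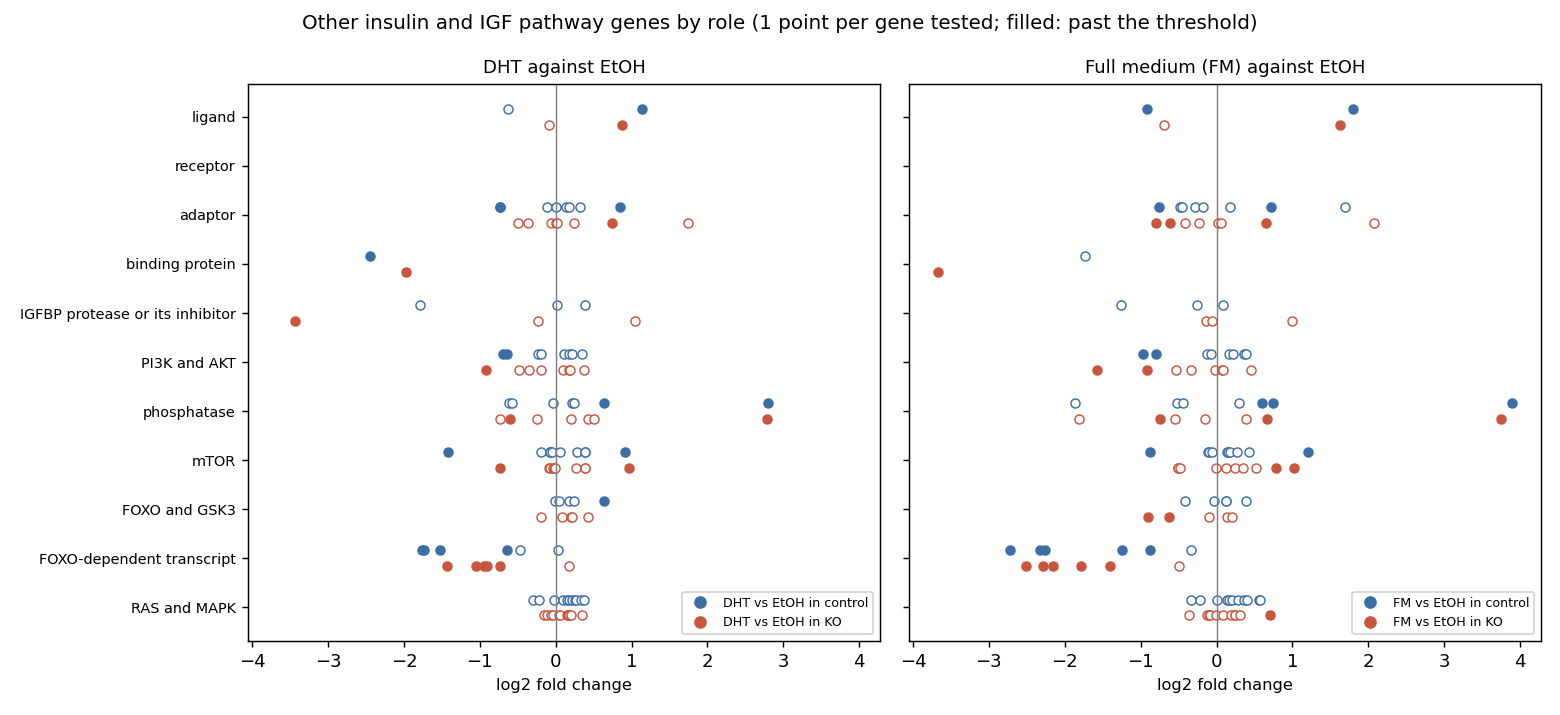
Log2 fold changes (horizontal axes) of the other insulin and IGF pathway genes by role, with DHT on the left and FM on the right, 1 point per gene tested, control in blue and KO in red. Filled points passed the threshold. Filled points in the row of FOXO-dependent transcripts all lie below 0, and INPP4B is the point farthest to the right.

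The lines were compared for the pathway genes in each condition. In EtOH 2 of 57 tested passed, IGF1 and INPP4B, both higher in KO, where 5.11% of all genes tested passed. In DHT 5 passed as higher and 1 as lower of 57 (7.98% of all genes), and in FM 3 and 1 of 56 (8.01%). SESN3 was among those higher in KO in DHT, by 0.88 (SE 0.16, adjusted p = 2.69e-06). The gene lower in KO in DHT was STC2, a stanniocalcin that restrains an IGFBP protease, with -0.76 (SE 0.12, adjusted p = 3.97e-09). STC2 was lower in KO in the other conditions as well, where it missed the fold minimum alone. It had 2240.9 ± 44.7 normalized counts in control EtOH and 1567.5 ± 20.4 in KO EtOH (SD, n = 2). In FM it had 1866.3 ± 262.4 in control and 1422.4 ± 55.4 in KO (SD, n = 2).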

How the data were processed

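RNA was measured in 12 samples of LNCaP cells (6 groups of 2). Stranded poly(A) libraries were sequenced, and the authors deposited raw read counts per Ensembl gene, made with TopHat2 2.0.11 and HTSeq 0.5.3p3 after CASAVA 1.7, as the submitters' processing notes list them. The reference was GRCh37. The annotation release and the strand setting of the counting are not given in the sources used here. Each file held 63677 identifiers and 5 tallies of unassigned reads. The tallies were left out of library sizes: reads outside genes were 4.33% to 5.62% and ambiguous reads 8.25% to 9.95%.

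Symbols and exon lengths came from GENCODE v44lift37 (55665 identifiers found) and promoter windows from RefSeq. The members and lists were chosen with earlier results of these data known. DESeq2 1.42.0 (R 4.3.3) was fitted once to all 12 samples with a coefficient per group, on 26156 genes with at least 10 counts in sum. Wald tests were adjusted by Benjamini-Hochberg over all genes, and fold changes were not shrunk. The count model edgeR 4.0.16 was an alternative, beside other filters, scalings, blocks and the omission of each sample. All 10 members were named, and of the other pathway genes past the threshold at most 6 per comparison, by size of change, with INS, IGF1 and IGF2 in any case. TXNIP, KLHL24 with DHT and the RAS and MAPK counts are mentioned outside that rule, after their values were seen. With DHT, PIK3R1 in both lines, MTOR in control, and DEPTOR and SESN3 in KO are also outside the 6 largest changes. IGFALS and STC1 fall within the rule with DHT, but their counts are low and no fold is given. The replicates are described as biological duplicates, with no statement on separate cultures, so p-values measure the spread between these samples.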

Additional observations from a re-analysis of the deposited data

Results flagged for a closer look

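The interaction of line and treatment passed the threshold for 5 listed genes, all in the DESeq2 fit of the 12 samples. For DHT these were 1 of 8 members and 1 of 56 pathway genes tested, where 0.408% of 13478 genes passed. For FM they were 1 of 8 members and 2 of 56 pathway genes, where 1.39% of 12971 genes passed. GRB10 differed in its DHT response by a log2 value of 0.61 (KO minus control), falling less in KO. SESN3 differed in the same direction by 0.85 and also fell less in KO. IGFBP2 differed in its response to FM by 0.91, with the lower FM level in control alone. PIK3R1 differed in the FM response by -0.77 and FOXO3, a FOXO transcription factor, by -0.6, the larger falls being in KO. The calls were lost in 12 (GRB10), 14 (SESN3), 8 (IGFBP2), 2 (PIK3R1) and 8 (FOXO3) of 21 alternatives. No group had 4 samples, so single samples were not screened as outliers.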

How the results depend on the processing

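Over 21 alternatives, 20 of the 25 member values past the threshold kept their call in every one, and no member or pathway value that passed changed sign. The alternative with no fold minimum is the main fit with a looser threshold, so in it no call could be lost and no sign could change. Omitting a sample outside the groups compared left the GRB10 difference in DHT response at 0.61. Of 47 member values that did not pass, 21 changed sign and 11 passed in at least 1 alternative, among them IGF1R in KO against control in FM (-0.59 with a replicate block within each line, an alternative added after the data were seen). For the difference in DHT response, member calls went from 1 to 0 with edgeR (2 at an unadjusted p under 0.05, beside 1 with DESeq2) and to 0 with only the compared groups fitted. Pathway calls went from 1 to 0 with edgeR (5 at an unadjusted p under 0.05, beside 4), with at least 10 counts in every sample, with only the compared groups, and with counts thinned to the smallest total. For the difference in FM response, edgeR gave 0 members (3 at an unadjusted p under 0.05) in place of 1 and 0 pathway genes (13) in place of 2. For KO against control in EtOH, the compared groups alone gave 1 member and 1 pathway gene in place of 2 each, and no fold minimum gave 4 and 7. In FM, no fold minimum gave 3 members in place of 1 and 12 pathway genes in place of 4, and the replicate block within each line gave 2 members. With no fold minimum, FM against EtOH called 30 pathway genes in place of 16 in control and 32 in place of 20 in KO. Leaving out 1 sample at a time, member calls ranged from 0 to 1 for the difference in DHT response and from 0 to 3 for that in FM. Pathway calls ranged from 9 to 14 for DHT in KO, 0 to 1 for the difference in DHT response, 2 to 5 for KO against control in EtOH, 2 to 5 in FM and 0 to 8 for the difference in FM response. The cause of these shifts was not tested.

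The replicate numbers were shared across groups, with no stated pairing. Replicate differences correlated between -0.415 and 0.692 over 15 pairs of groups (mean 0.033), and the main fit did not pair the samples. A mean over all pairs cannot exclude a replicate effect shared by some groups. Whether control EtOH and control DHT share one was not tested. In both, IGF1R, INSR, IGF2R, IRS2, GRB10 and IGFBP5 were higher in replicate 1 and IGFBP2 was lower. IGFBP3 was higher in replicate 1 of control EtOH and lower in that of control DHT. With a replicate block common to all groups, member calls had the main count in all 9 comparisons, and pathway calls were 16, 13, 1, 2, 6, 4, 16, 20 and 3 for DHT in control, DHT in KO, their difference, KO against control in EtOH, DHT and FM, FM in control, FM in KO and their difference. The block within each line gave 5 members in place of 4 for DHT in KO and 2 in place of 1 for KO against control in FM, and the main count elsewhere, with pathway calls of 15, 12, 1, 3, 4, 3, 16, 20 and 3 in the same order. IRS1 and IGFBP4 could not be compared at this depth.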
